A study of Mus with 2 samples.

Results

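The genes described here encode the core of the HIF oxygen-sensing pathway: *Hif1a*, *Epas1* and *Arnt* (HIF subunits), *Vhl* and *Cul2* (ubiquitin ligase subunits), *Egln1*, *Egln2* and *Egln3* (prolyl hydroxylases) and *Hif1an* (an asparaginyl hydroxylase). They were chosen by symbol, and these 9 of the 27998 genes in the count tables were followed across cell kinds and across both libraries. Hematopoietic stem cells (HSCs) had been sorted from tibias and fibulas by the gate LSK/FLT3-/CD150+/CD48-, where LSK stands for lineage-negative cells with Sca-1 and c-Kit. From each genotype 1000 sorted cells, pooled from 5 mice aged 8 to 12 weeks, went onto a 10x Genomics Chromium, in which RNA molecules receive at 1 end a barcode for their cell and a tag for the molecule (UMI). One library came from Mx1-Cre; ID2+/+ mice (Id2+/+) and the other from Mx1-Cre; ID2Δ/Δ mice (Id2 deleted), so no difference between genotypes has a replicate check.

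Both groups carried Mx1-Cre, a recombinase that interferon or poly(I:C) (pIpC) induces in many tissues, not in blood cells alone. According to the study's methods the HSCs were taken after pIpC treatment. The title and genotype of the second sample state the deletion, although a clause of its labels gives Id2+/+ mice for the bones. *Id2*, an inhibitor of DNA binding, had 22 UMIs in the retained cells of the Id2+/+ library and 0 in those of the Id2-deleted library, in which all barcodes together held 4 against 99.

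When oxygen is plentiful, the prolyl hydroxylases modify the HIF alpha subunits encoded by *Hif1a* and *Epas1*, and VHL, the substrate receptor of a CUL2 ubiquitin ligase, then marks them for destruction. When oxygen is scarce, the alpha subunits pair with ARNT and switch on genes of glycolysis, red cell production and vessel growth. HIF1AN modifies the alpha subunits at another residue and weakens their binding to coactivators. Because this control acts on the protein, mRNA levels such as those measured here do not report it. In HSCs the pathway is known for its part in quiescence and in glycolytic metabolism.

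According to RefSeq for GRCm38.p6, the same assembly as the mm10 named by the submitters, all 9 are protein-coding. *Hif1a* spans chr12:73901324-73947554, *Epas1* chr17:86753864-86833410 and *Arnt* chr3:95434367-95497240. *Vhl* spans chr6:113623994-113631634 and *Hif1an* chr19:44562854-44576274. The hydroxylase genes lie on different chromosomes, with *Egln1* at chr8:124908587-124949254, *Egln2* at chr7:27158658-27166802 and *Egln3* at chr12:54178981-54203874.

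Sequencing gave 8612217 UMIs for Id2+/+ and 17140713 for Id2 deleted. Cells were called at 349 and 632 barcodes, of which 1 barcode was shared by both libraries and 0 were shared among retained cells. After removal of clusters of other cell types, 262 and 416 cells were retained, with medians of 7081 and 9663 UMIs. All 11 HSC markers were detected in the retained cells of both libraries, summing to 1049 and 795 CPM (UMIs per 1000000 UMIs). The removed cells were 35 and 156 erythroid-like cells, 9 and 13 haemoglobin-rich cells and 27 and 40 neutrophil-like cells. Barcodes with 1 to 100 UMIs, taken as empty droplets that hold free RNA, held 46.3% and 22.4% of all UMIs. From the haemoglobin genes, free RNA was estimated at 10.5% and 5.41% of the retained cells' UMIs.

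In the retained HSC sort, *Egln2* was the most abundant of the 9 genes, followed by *Cul2* and *Hif1a*, and *Epas1* was nearly absent. The 9 genes together held 362 UMIs in the Id2+/+ library (170 CPM) and 748 in the Id2-deleted library (160 CPM). As UMIs count molecules by 1 end, these levels were not divided by gene length. All intervals given are at 95% and cover counting error only.

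Among the HIF subunits, *Hif1a* was the main alpha subunit transcript. It had 48 UMIs in Id2+/+ retained cells, or 22.5 CPM (16.6 to 29.8), and 114 in Id2-deleted cells, or 24.3 CPM (20.1 to 29.2). *Epas1*, which encodes HIF-2α, had 2 and 3 UMIs, both at or under the floor of 3 counts, so no ratio is given. *Arnt*, the common beta subunit, had 28 UMIs (13.1 CPM, 8.72 to 19.0) and 36 UMIs (7.68 CPM, 5.38 to 10.6). The intervals of the libraries overlapped for both genes.

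Of the ligase genes, *Vhl* had 23 and 54 UMIs, or 10.8 CPM (6.83 to 16.2) and 11.5 CPM (8.66 to 15.04). *Cul2*, the scaffold that joins VHL to the rest of the ligase, had 57 and 139 UMIs, or 26.7 CPM (20.2 to 34.6) and 29.7 CPM (24.9 to 35.03). *Cul2* made up 71.3% (60.0 to 80.8, Clopper-Pearson) of the UMIs of the pair in Id2+/+ cells and 72.0% (65.1 to 78.2) in Id2-deleted cells. The proportion of scaffold to receptor transcripts was thus almost the same in both libraries.

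*Egln2* (PHD1) led the hydroxylases with 159 and 293 UMIs, or 74.5 CPM (63.4 to 87.1) and 62.5 CPM (55.6 to 70.1). *Egln3* (PHD3), itself a HIF target gene, had 21 and 43 UMIs, or 9.84 CPM (6.09 to 15.05) and 9.18 CPM (6.64 to 12.4). *Egln1* (PHD2), regarded as the main oxygen sensor in many tissues, had 6 and 21 UMIs, or 2.81 CPM (1.03 to 6.12) and 4.48 CPM (2.77 to 6.85). *Hif1an* had 18 and 45 UMIs, or 8.44 CPM (5.00 to 13.3) and 9.60 CPM (7.005 to 12.9). In each library the interval of *Egln2* lay above those of all the other genes of the group. The intervals of *Cul2* and *Hif1a* overlapped each other, and those of *Arnt*, *Vhl*, *Egln3* and *Hif1an* overlapped one another.

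**Figure D1:**
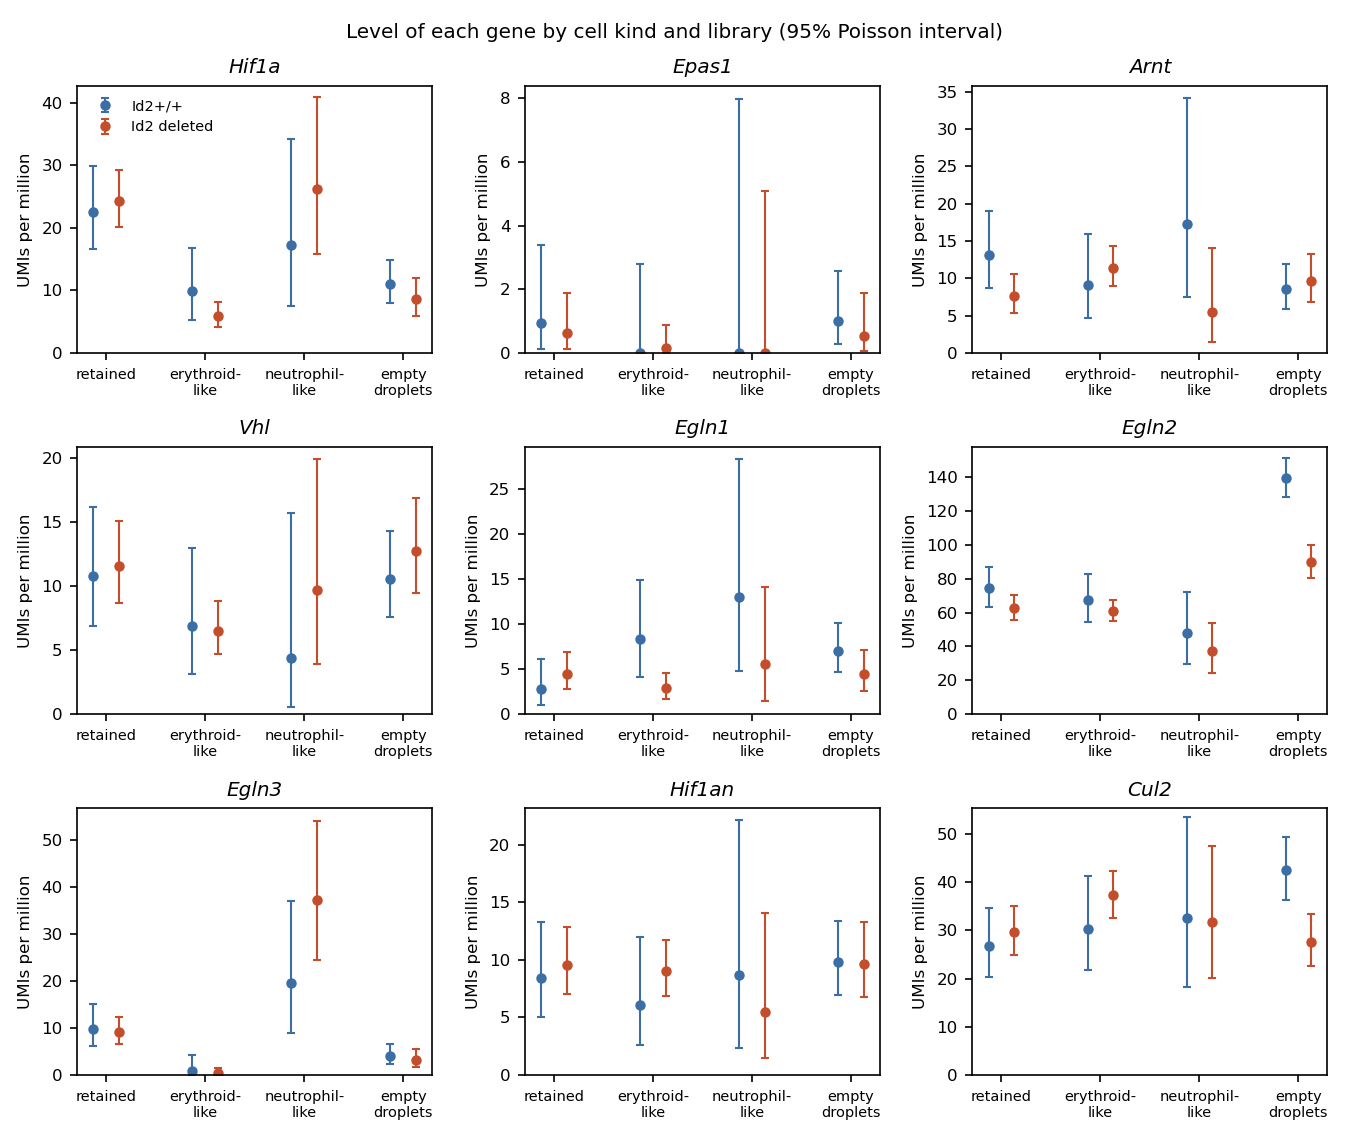
CPM of each of the 9 genes (vertical axis, a separate scale per gene) in retained cells, erythroid-like cells, neutrophil-like cells and empty droplets. Blue points are the Id2+/+ library, red points the Id2-deleted library, and bars are exact 95% Poisson intervals. *Hif1a* was at 22.5 and 24.3 CPM in retained cells and at 9.86 and 5.86 CPM in erythroid-like cells, and *Egln3* ranged from 0.475 CPM in erythroid-like to 37.2 CPM in neutrophil-like cells of the Id2-deleted library.

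Between genotypes, 1 of the 8 genes that reached 20 UMIs in sum had a counting interval that excluded 1. This was *Arnt*, at a ratio of 0.585 (0.347 to 0.996) for Id2 deleted over Id2+/+. For comparison, the interval lay below 1 for 13.3% and above 1 for 10.2% of 10458 genes tested, so 1 of 8 below 1 and 0 of 8 above 1 are close to the background. The *Arnt* interval reached 1 or more, at upper ends of 1.07 and 1.09, under TMM or median-of-ratios scaling. Leaving out the cell with most *Arnt* UMIs in each library moved the upper end to 1.03. The ratio itself was 0.935 (0.386 to 2.59) in cells with *Xist* but without Y-linked UMIs. The cells that had Y-linked UMIs but lacked *Xist* gave 0.441 (0.114 to 1.53), and the ratio turned to 1.23 (0.396 to 3.26) in HSC-like clusters only.

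The remaining ratios had intervals on both sides of 1. *Hif1a* was at 1.08 (0.765 to 1.55), and it turned to 0.832 with other cell types left in, to 0.971 in Y-linked-positive cells that lacked *Xist*, and to 0.901 in HSC-like clusters only. *Vhl* was at 1.07 (0.645 to 1.82) and *Cul2* at 1.11 (0.810 to 1.54). Both turned in HSC-like clusters only, *Vhl* to 0.745 and *Cul2* to 0.579, as did *Vhl* in Y-linked-positive cells that lacked *Xist* (0.771) and *Cul2* in *Xist*-positive cells that lacked Y-linked UMIs (0.881). *Egln2*, with the most UMIs and hence the narrowest interval, was at 0.839 (0.689 to 1.02). *Egln3* was at 0.932 (0.541 to 1.65), which passed to the other side of 1 under TMM scaling (1.004) and median-of-ratios scaling (1.02). It did so most in *Xist*-positive cells that lacked Y-linked UMIs, at 1.29 (0.519 to 3.83). *Hif1an* was at 1.14 (0.646 to 2.09) and *Egln1* at 1.59 (0.622 to 4.83). The *Hif1an* ratio turned to 0.930 in *Xist*-positive cells that lacked Y-linked UMIs and to 0.989 in Y-linked-positive cells that lacked *Xist*. In HSC-like clusters only it was 2.14. The *Egln1* ratio depended on the cells used, at 0.631 (0.372 to 1.10) with other cell types left in, 3.87 (0.581 to 164) in cells with *Xist* but without Y-linked UMIs, 0.942 (0.159 to 6.43) in cells with Y-linked UMIs but without *Xist*, and 0 in HSC-like clusters only.

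At a fold of 1.5, 1 of 8 genes lay above (*Egln1*) and 1 of 8 below (*Arnt*), where 3.76% and 13.3% of all genes tested did. The median log2 ratio of the 8 was 0.09, beside -0.08 for all genes tested. The summed UMIs of the 9 genes had a ratio of 0.941 (0.829 to 1.07).

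**Figure D2:**
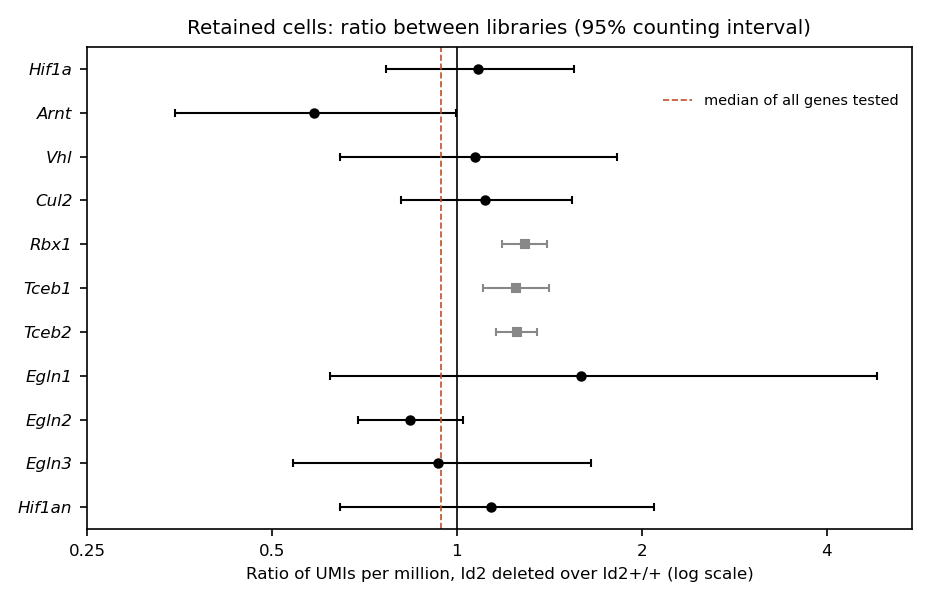
Ratio of CPM in retained cells, Id2 deleted over Id2+/+ (horizontal log axis), for 8 of the 9 genes (black circles) and the 3 other subunits of the VHL ligase (grey squares). Bars are exact 95% counting intervals and the dashed line is the median of all 10458 genes tested. *Arnt* (0.585) is the only black point whose interval excludes 1, and all 3 grey squares lie between 1.25 and 1.29.

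The number of cells with a UMI was compared after thinning each cell to 5800 UMIs, which left 196 of 262 Id2+/+ cells and all 416 Id2-deleted cells. Over 20 random draws, *Egln2* was found in a median of 38.8% of Id2+/+ and 32.0% of Id2-deleted cells, and the difference (Id2 deleted minus Id2+/+) was below 0 in all 20 draws, between -11.7 and -0.29 percentage points. *Hif1a* was found in medians of 12.8% and 12.6%, with a difference between -4.73 and 2.90 points. *Arnt* was found in medians of 7.65% and 4.69%, and *Egln1* in 0.510% and 3.13%, the first of these under the floor of 3 counts. The 20 draws reuse the same cells, so their spread is that of thinning alone. In 1 draw at 3000 UMIs, which kept all 262 and 416 cells, *Egln1* was in 1.53% and 1.44% and *Arnt* in 3.05% and 2.64%. *Egln2* was then in 21.0% and 18.3% and *Hif1a* in 8.02% and 7.45%. Unthinned, the shares were 46.9% and 52.4% for *Egln2* and 16.4% and 22.6% for *Hif1a*, so the deeper Id2-deleted library then had the larger share of both.

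Joint detection was counted in 1 separate draw at 5800 UMIs, in which *Hif1a* was found in 11.7% and 15.9% of cells, a difference above the range of the 20 draws. In it, 35.7% (29.0 to 42.9) of Id2+/+ and 36.8% (32.1 to 41.6) of Id2-deleted retained cells had no UMI of any of the 9 genes. Cells with UMIs of both *Hif1a* and a prolyl hydroxylase numbered 9 of 196 and 28 of 416. *Hif1a* together with *Vhl* was seen in 1 and 4 cells.

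Across cell kinds, *Hif1a* and *Egln3* were lower in erythroid-like than in retained cells in both libraries. *Hif1a* had 13 UMIs in the Id2+/+ erythroid-like cells (9.86 CPM, 5.25 to 16.9) and 37 in the Id2-deleted ones (5.86 CPM, 4.13 to 8.08). The ratio to retained cells of the same library was 0.438 (0.218 to 0.822) and 0.241 (0.162 to 0.352). *Egln3* had 1 and 3 UMIs in erythroid-like cells, with ratios of 0.0770 (0.00186 to 0.479) and 0.0518 (0.0103 to 0.162). These were the 2 of 8 genes at a ratio of 0.5 or less in both libraries, where 28.7% of 11077 genes tested met that rule. At a ratio of 2 or more the count was 0 of 8, beside 7.3% of all genes. Cell kinds were found by clustering the same cells without the 9 genes, and these ratios are descriptions.

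The empty droplets had *Hif1a* at 11.04 and 8.58 CPM and *Egln3* at 4.01 and 3.12 CPM, in each case above the value in erythroid-like cells. With the free RNA profile subtracted, the *Hif1a* ratios of erythroid-like to retained cells were 0.408 and 0.226, and those of *Egln3* were 0.0358 and 0.0340. Erythroid-like cells were deeper, with medians of 37549 and 40039 UMIs. At 5800 UMIs a cell, *Hif1a* was found in 1 of 34 and 4 of 156 erythroid-like cells, beside medians of 12.8% and 12.6% of retained cells. *Egln3* was found in 0 of 34 and 0 of 156 cells thinned in this way, where 3 counts would be shares of 8.82% and 1.92% and the Clopper-Pearson upper ends were 10.3% and 2.34%, beside medians of 7.14% and 5.89% of retained cells. Unthinned, 1 of 35 and 3 of 156 erythroid-like cells had an *Egln3* UMI.

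*Hif1a* was also measured in erythroid-like clusters that came from 1 library each. The cluster led by *Mt2*, *Car1* and *Sphk1* held 81 Id2-deleted cells, with *Hif1a* at 5.62 CPM (3.39 to 8.78). Another, with 27 Id2+/+ cells, had *Hif1a* at 9.35 CPM (4.49 to 17.2). The leading genes of both clusters included *Mt2*, *Car1*, *Sphk1*, *Fam132a* and *Klf1*. Stage and library cannot be told apart between these clusters.

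Of the other genes in erythroid-like cells, *Egln2* was at 67.5 and 60.8 CPM, with ratios to retained cells of 0.906 (0.691 to 1.18) and 0.973 (0.834 to 1.14). *Cul2* was at 30.3 and 37.2 CPM, with ratios of 1.14 (0.738 to 1.73) and 1.26 (1.01 to 1.56). *Vhl* was at 6.82 and 6.496 CPM, with ratios of 0.633 (0.258 to 1.42) and 0.564 (0.366 to 0.862). *Arnt* was below its retained level in the Id2+/+ library, at a ratio of 0.693 (0.321 to 1.41), and above it in the Id2-deleted library, at 1.48 (0.982 to 2.28). Both intervals contain 1, and they overlap.

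*Egln1* was the only 1 of the 9 genes with an interval between libraries that excluded 1 in erythroid-like cells. No share over all genes is given for that comparison. *Egln1* had 11 UMIs in the 35 Id2+/+ cells, or 8.34 CPM (4.16 to 14.9), and 18 in the 156 Id2-deleted cells, or 2.85 CPM (1.69 to 4.51). Its ratio to retained cells was 2.97 (1.01 to 9.77) and 0.636 (0.320 to 1.25), on opposite sides of 1. The ratio between libraries was 0.342 (0.153 to 0.801). In retained cells the ratio was on the other side of 1. The 11 UMIs came from 7 cells, all in the erythroid-like cluster of 27 Id2+/+ cells. Stage and library thus cannot be told apart here either. *Hif1an* had 8 and 57 UMIs in erythroid-like cells, at 6.07 and 9.03 CPM. In haemoglobin-rich cells 8 of the 9 genes had no UMI in either library and *Egln2* had 1 UMI in each. The floor of 3 counts was 37.0 and 26.8 CPM there, so levels like those of *Hif1a* in retained cells were not detectable.

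In neutrophil-like cells *Egln3* was at its highest. It had 9 UMIs in 27 Id2+/+ cells, or 19.5 CPM (8.91 to 37.0), and 27 UMIs in 40 Id2-deleted cells, or 37.2 CPM (24.5 to 54.1). Its ratio to retained cells was 1.98 (0.798 to 4.51) and 4.05 (2.41 to 6.71), and only the second interval excludes 1. Against erythroid-like cells of the same library, *Egln3* was 25.7-fold higher (3.56 to 1126) and 78.2-fold higher (24.1 to 403). These folds rest on 1 and 3 erythroid-like UMIs, at or under the floor of 3 counts, so their size is uncertain. *Hif1a* was at 17.3 and 26.2 CPM in neutrophil-like cells, with ratios to retained cells of 0.770 (0.315 to 1.64) and 1.08 (0.624 to 1.76).

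*Egln2* was lower in neutrophil-like cells, at 47.6 and 37.2 CPM and ratios of 0.639 (0.390 to 1.002) and 0.594 (0.385 to 0.883). *Egln1* was at 12.99 and 5.51 CPM, with ratios of 4.62 (1.23 to 17.3) and 1.23 (0.307 to 3.64). By the rule of a ratio of 2 in both libraries, 0 of 8 genes were called higher and 0 of 8 lower, where 4.14% and 25.9% of 10666 genes tested were. *Egln3* in the Id2+/+ library was just under that limit. The retained cells themselves held neutrophil markers at 1112 and 656 CPM in sum, beside 73809 and 94479 CPM in neutrophil-like cells. All 11 of these markers had UMIs in retained cells of both libraries, and their part in the *Egln3* level of retained cells was not tested.

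The hydroxylase transcripts thus varied in composition among cell kinds, but not between every pair of kinds in both libraries. The *Egln2* intervals of retained and erythroid-like cells overlapped in the Id2+/+ library. *Egln2* made up 85.5% (79.6 to 90.2) and 82.1% (77.7 to 85.9) of the UMIs of the 3 prolyl hydroxylase genes in retained cells, 88.1% (80.2 to 93.7) and 94.8% (92.2 to 96.8) in erythroid-like cells, and 59.5% (42.1 to 75.2) and 46.6% (33.3 to 60.1) in neutrophil-like cells. *Egln3* made up 11.3% (7.13 to 16.7) and 12.04% (8.86 to 15.9) in retained cells. Its part was 0.9901% (0.0251 to 5.39) and 0.741% (0.153 to 2.15) in erythroid-like cells and 24.3% (11.8 to 41.2) and 46.6% (33.3 to 60.1) in neutrophil-like cells. In each library the intervals for *Egln3* in erythroid-like and retained cells did not overlap. Those for retained and neutrophil-like cells overlapped in the Id2+/+ library and did not in the Id2-deleted library. In the empty droplets *Egln3* made up 2.67% and 3.20%.

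**Figure D3:**
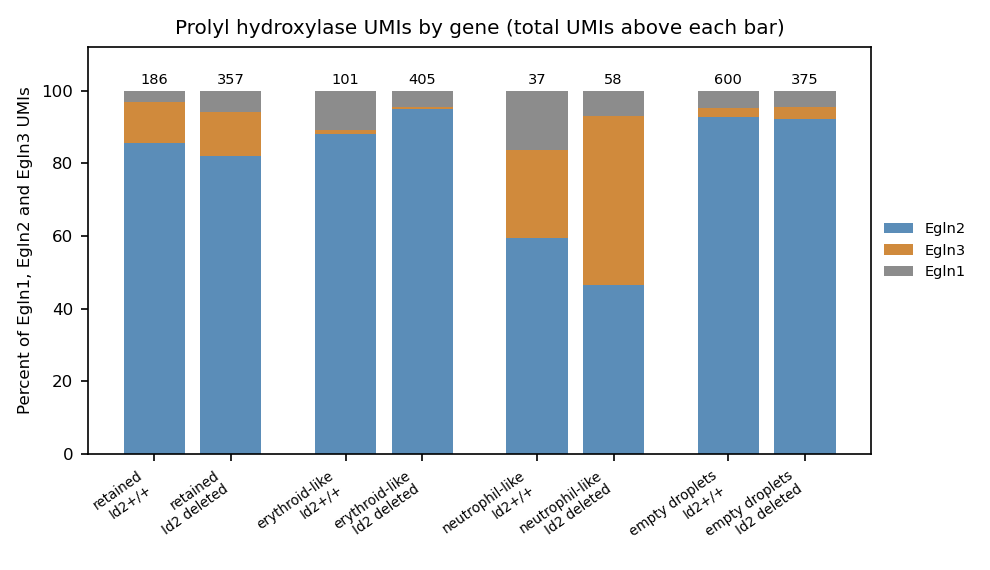
Percent of all *Egln1*, *Egln2* and *Egln3* UMIs held by each gene (vertical axis) in retained, erythroid-like and neutrophil-like cells and in empty droplets of each library, with the total UMIs above each bar. *Egln3* takes 11.3% and 12.04% in retained cells, under 1% in erythroid-like cells and 24.3% and 46.6% in neutrophil-like cells.

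Within the retained cells, the second clustering followed the libraries. The HSC-like class consisted of a cluster of 169 Id2+/+ cells (led by *Meg3*, *Fos* and *Klf2*) and a cluster of 5 Id2+/+ and 43 Id2-deleted cells (led by *Sult1a1*, *Gm4951* and *Cpne8*). The platelet-biased HSC-like class held 75 and 92 cells, mostly in a cluster of 71 Id2+/+ cells and another of 65 Id2-deleted cells. No cluster met the rule for activated HSC-like cells, and 13 and 281 cells were left unnamed.

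*Hif1a* was near its overall level in every class. It was at 23.5 and 21.2 CPM in HSC-like cells, 21.0 and 29.4 CPM in platelet-biased HSC-like cells and 23.3 and 21.9 CPM in unnamed cells. The ratio of platelet-biased to HSC-like cells was 0.894 (0.464 to 1.68) and 1.39 (0.622 to 3.64). *Egln3* had 4 UMIs in platelet-biased and 16 in HSC-like cells of the Id2+/+ library, a ratio of 0.335 (0.0816 to 1.04). In the Id2-deleted library it had 6 and 3, a ratio of 0.422 (0.0902 to 2.61). The count of 3 is at the floor, so no direction is given there. *Hif1an* had 4 and 13 UMIs, a ratio of 0.413 (0.0980 to 1.34), and 13 and 8 UMIs, a ratio of 0.343 (0.132 to 0.955), and only this last interval excludes 1. *Egln2* was at 1.12 (0.802 to 1.55) and 0.998 (0.626 to 1.66).

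Cells with a *Cd34* UMI (142 and 268) and cells with an *Hlf* UMI but none of *Cd34* (59 and 70) served as more and less activated ranges, since CD34 marks HSCs leaving dormancy and HLF is a stem cell transcription factor. *Hif1a* was at 22.9 and 24.3 CPM in the first and at 22.4 and 27.8 CPM in the second, with ratios of 1.02 (0.466 to 2.47) and 0.874 (0.522 to 1.53). *Vhl* was at ratios of 1.36 (0.440 to 5.60) and 1.73 (0.679 to 5.63), and *Hif1an* at 1.25 (0.330 to 6.97) and 0.455 (0.203 to 1.09). The intervals of all 9 genes reached both sides of 1 or could not be bounded above. Cells with a *Cd34* UMI were also deeper, with medians of 7309 and 9873 UMIs beside 5955 and 8163.

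Retained cells were next divided into 3 ranges of equal size by the share of their UMIs in S-phase and G2/M genes. The highest range held 61 Id2+/+ and 165 Id2-deleted cells, the lowest 97 and 129. *Hif1a* was at 23.4 and 27.4 CPM in the highest and 22.6 and 17.1 CPM in the lowest range, a ratio of 1.04 (0.481 to 2.27) and 1.60 (0.941 to 2.87). *Egln2* was at ratios of 1.005 (0.662 to 1.53) and 0.976 (0.724 to 1.33). *Egln3* had 2 UMIs in the highest and 7 in the lowest range of Id2+/+ cells, a ratio of 0.244 (0.0247 to 1.28), and 17 and 15 in those of Id2-deleted cells, a ratio of 0.496 (0.233 to 1.07). *Hif1an* had 2 and 8 UMIs (0.213, 0.0221 to 1.07) and 19 and 13 UMIs (0.640, 0.300 to 1.41). The counts of 2 are under the floor, so no direction is given for the Id2+/+ library. None of these intervals excluded 1.

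The other subunits of the VHL ligase were far more abundant than *Vhl* and *Cul2* in UMIs, and all were higher in the Id2-deleted library. *Rbx1*, the RING subunit, was at 354 and 457 CPM, a ratio of 1.29 (1.19 to 1.40). *Tceb1* (elongin C) was at 165 and 205 CPM, a ratio of 1.25 (1.10 to 1.41), and *Tceb2* (elongin B) at 423 and 529 CPM, a ratio of 1.25 (1.16 to 1.35). All 3 of 3 intervals lay above 1, where 10.2% of all genes tested did, with none past 1.5-fold and a median log2 ratio of 0.32. Intervals narrow with the number of UMIs. These genes had 351 to 902 UMIs in Id2+/+ and 962 to 2477 in Id2-deleted cells, whereas genes tested needed only 20 in sum. The 10.2% is therefore not a share among genes of like abundance. Summed S-phase genes were at 3151 and 3848 CPM, G2/M genes at 3347 and 4251 CPM and dissociation stress genes at 5664 and 4832 CPM in the same cells, and their part in the result was not tested. The count of partners above 1 was 1 of 3 in cells with *Xist* but without Y-linked UMIs, and 1 of 3 in HSC-like clusters only. In empty droplets the same ratios were 1.33 (1.25 to 1.42) for *Rbx1*, 1.24 (1.14 to 1.35) for *Tceb1* and 1.49 (1.40 to 1.59) for *Tceb2*. The free RNA thus differed between libraries in the same direction. With its profile subtracted from the retained cells, in the amount estimated from the haemoglobin genes, all 3 of 3 intervals lay above 1. Whether the ratios come from a difference across the whole library was not tested. In erythroid-like cells *Rbx1* was at 1.20 (1.10 to 1.32), *Tceb1* was at 1.06 (0.953 to 1.17) and *Tceb2* at 1.07 (0.989 to 1.17).

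Of 14 genes for cullin modification, 2 had intervals above 1 and 0 below (14.3% and 0%, beside 10.2% and 13.3% of all genes tested), with a median log2 ratio of 0.06. *Nedd8*, the modifier that activates cullins, was highest at 1.29 (1.17 to 1.43), followed by *Cops3*, a signalosome subunit, at 1.26 (1.06 to 1.496). *Cops8* at 0.892 (0.748 to 1.07) and *Cand1* at 0.900 (0.686 to 1.19) were lowest. Of the 6 other cullins, 0 had an interval off 1, and they ranged from 0.843 for *Cul4a* (0.652 to 1.10) and 0.929 for *Cul7* (0.565 to 1.56) to 1.13 for *Cul5* (0.875 to 1.47) and 1.24 for *Cul4b* (0.738 to 2.15). Beside these, *Cul2* at 1.11 did not stand apart.

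Among the other bHLH-PAS factors, the protein family of the HIF subunits, 3 of 13 passed the minimum of 20 UMIs. *Arntl* (BMAL1, the circadian partner of CLOCK) was at 0.524 (0.335 to 0.821), *Clock* at 0.769 (0.476 to 1.26) and *Ahr*, the receptor for aryl hydrocarbons, at 0.876 (0.431 to 1.86). *Hif3a* had 7 UMIs in each library. Of the 3 tested, 1 (*Arntl*) had an interval below 1 and 0 above (33.3% and 0%, beside 13.3% and 10.2% of all genes tested), with a median log2 ratio of -0.39. *Arnt* also had an interval below 1, but not under TMM or median-of-ratios scaling. In empty droplets *Arntl* was at 0.510 (0.320 to 0.796), whereas *Arnt* was at 1.13 (0.688 to 1.85).

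HIF cofactors and repressors had 1 of 12 intervals above 1 and 0 below (8.33% and 0%, beside 10.2% and 13.3% of all genes tested), with a median log2 ratio of 0.05. Their extremes were *Kdm4c* at 1.26 (0.653 to 2.59), *Cited4* at 1.19 (0.854 to 1.67), *Ncoa1* at 0.956 (0.549 to 1.72) and *Ncoa2* at 0.872 (0.606 to 1.27). Of 20 genes that act on HIF-1α stability outside VHL, 5 had intervals above 1 and 1 below (25% and 5%, beside 10.2% and 13.3% of all genes tested), with a median of 0.06. The 5 above 1, named after their values were seen, were abundant genes at ratios of 1.05 to 1.18, with *Hsp90aa1* at 1.18 (1.12 to 1.24), *Mcm7* at 1.13 (1.0002 to 1.29), *Vcp* at 1.11 (1.02 to 1.21), *Hsp90ab1* at 1.08 (1.04 to 1.12) and *Gnb2l1* at 1.05 (1.01 to 1.09). *Siah1a* at 1.35 (0.903 to 2.07) and *Usp8* at 1.22 (0.908 to 1.65) had the highest ratios, with intervals that contained 1. *Usp33* at 0.698 (0.431 to 1.15) and *P4htm*, a further prolyl hydroxylase anchored in the endoplasmic reticulum, at 0.304 (0.133 to 0.666) were lowest.

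HIF target genes lay on both sides of 1. Of 27 tested, 4 had intervals above 1 and 6 below, 2 lay above 1.5-fold and 4 below it, and the median log2 ratio was -0.06. In percent these counts were 14.8, 22.2, 7.41 and 14.8, beside 10.2, 13.3, 3.76 and 13.3 for all genes tested. Under median-of-ratios scaling 6 intervals lay above 1 and 4 below, and under TMM 5 and 6. The counts above and below were 2 and 13 with other cell types left in, 0 and 1 in *Xist*-positive cells that lacked Y-linked UMIs, and 2 and 2 in HSC-like clusters only. *Pgk1*, a glycolytic kinase, was at 119 and 52.3 CPM, a ratio of 0.439 (0.367 to 0.526), and *Pfkfb3*, which makes an activator of glycolysis, was at 0.347 (0.169 to 0.698). The highest ratios were those of *Egln1* and of *Plod2*, a collagen lysyl hydroxylase, at 1.53 (0.765 to 3.33), both with intervals that contained 1. The 4 genes with intervals above 1, named after their values were seen, were *Higd1a*, a mitochondrial protein, at 1.35 (1.19 to 1.54) and the glycolytic genes *Ldha* at 1.20 (1.14 to 1.27), *Pfkl* at 1.18 (1.03 to 1.37) and *Eno1* at 1.16 (1.06 to 1.28). The other 4 below 1, named in the same way, were *Mxi1* at 0.571 (0.405 to 0.808), *Hk2* at 0.619 (0.428 to 0.899), *Ddit4* at 0.667 (0.489 to 0.915) and *Hk1* at 0.793 (0.683 to 0.922). Glycolytic genes were therefore found on both sides. *Pgk1* had a like ratio in erythroid-like cells, 0.428 (0.327 to 0.564), in neutrophil-like cells, 0.430 (0.294 to 0.623), and, closer to 1, in empty droplets, 0.668 (0.486 to 0.913). *Egln3*, the other HIF prolyl hydroxylase in this list, also had an interval that contained 1.

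**Figure D4:**
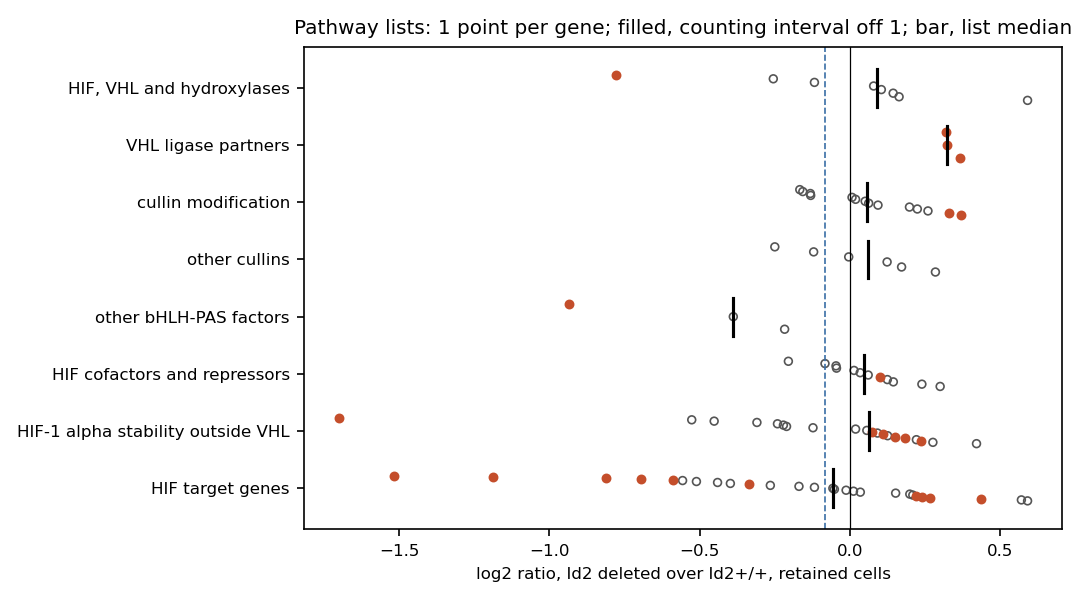
Log2 ratio of each gene, Id2 deleted over Id2+/+, in retained cells (horizontal axis) for the 8 genes tested and 7 related lists. Filled points have a counting interval off 1, open points do not, black bars are list medians, and the dashed line is the median of all genes tested (-0.08). The VHL ligase partners are all filled and lie above 0, at a median of 0.32, and the HIF target genes spread on both sides, from -1.52 for *Pfkfb3* to 0.59 for *Egln1*.

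The patterns of *Hif1a*, *Egln2* and *Cul2*, which had at least 200 UMIs in called cells, were compared with those of 6387 other genes over 7 points (library by cell kind). The genes most like *Hif1a* by Pearson's r of log2(CPM + 10) were *BC017643* (r = 0.995), *Oser1* (r = 0.9899) and *Cyfip1* (r = 0.989). Those most like *Egln2* were *Hnrnpl*, *Mybbp1a* and *Mum1* (r from 0.996 to 0.998), and those most like *Cul2* were *Dda1*, *Magoh* and *Sucla2* (r about 0.999). *Cyfip1* was at 29.5 and 34.4 CPM in retained cells and, like *Hif1a*, lower in erythroid-like cells, at 13.6 and 6.34 CPM. The points share libraries, and the haemoglobin-rich point, with few UMIs, lies far from the rest for all these genes, so the values are a description.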

How the data were processed

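The authors deposited 1 matrix of raw UMI counts per library, with 737280 barcodes and 27998 genes, covering all barcodes. The submitters' processing notes name Cell Ranger 2.2.0 and mm10. Samples were grouped by title.

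Barcodes were called cells when they held at least 10% of the UMI number that marks the 99th percentile among the 1000 deepest, which gave 349 and 632 cells where the labels state 383 and 686. A mitochondrial share under 10% was required. Cells were clustered (scanpy 1.11.5, Leiden, 2000 variable genes without the 9 genes, 20 components, 15 neighbours, resolution 1). Clusters with at least 4 markers of another type at a log2 fold over 1, each in 25% or more of the cells, and lower HSC markers, were removed, and the rest clustered again at resolution 0.8. Classes needed 3 markers at a log2 fold over 0.5, each in 10% or more of the cells, and leading genes were detected in at least 10% of cells. The marker limits were chosen with the clusters in view, and doublets were not called. One erythroid-like cluster, of 8 Id2+/+ and 75 Id2-deleted cells, is not reported on its own here. Genes with 20 or more UMIs in sum were tested.

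Counts summed per library were scaled to CPM, with Poisson intervals (exact). Ratios had exact conditional intervals (scipy 1.17.1) and shares Clopper-Pearson intervals. Log2 ratios had 0.5 added to each count. The interval was tested on simulated counts, with no result given here. With 1 library per genotype no test between genotypes was possible. The 9 genes were named together with, per pathway list, the 2 highest and 2 lowest log2 ratios, every VHL ligase partner, and the 3 genes most like each gene with at least 200 UMIs, leaving out mitochondrial, ribosomal, Gm and Rik genes. The genes and lists were chosen with earlier results of these data known. Alternatives covered cell calls, clustering, scaling, free RNA, sex-marker subsets and thinning, and some were added after the data were seen.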

Additional observations from a re-analysis of the deposited data

Results flagged for a closer look

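*Egln2* was flagged because barcodes outside the cell comparison, the empty droplets, held it at a higher level than the cells. It stood at 140 CPM (128 to 152) in empty droplets of the Id2+/+ library and at 89.9 CPM (80.7 to 99.9) in those of the Id2-deleted library. Retained cells had 74.5 and 62.5 CPM, and erythroid-like and neutrophil-like cells were lower still, so that no cell kind analysed here reached the level of the free RNA. The ratio of empty droplets to retained cells was 1.87 (1.57 to 2.25) and 1.44 (1.23 to 1.69). Between genotypes the empty droplets had an *Egln2* ratio of 0.645 (0.562 to 0.739), beside 0.839 in retained cells and 0.911 after the free RNA profile was subtracted.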

How the results depend on the processing

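No paired analysis was possible because there was 1 library per genotype. Of 120 alternative ratios of the 8 genes, 116 lay within the interval of the reported value. Lifting the mitochondrial limit, first clustering at resolution 2, or clustering with the genes described here left in kept 262 and 416 cells. Every ratio was then unchanged, so these settings add to the 116 without testing it. The intervals were also wide for genes with few UMIs, as from 0.622 to 4.83 for *Egln1*. The 116 is therefore not a measure of how stable the ratios were. *Hif1a* ranged from 0.832 with other cell types left in to 1.26 in *Xist*-positive cells without Y-linked UMIs, *Vhl* from 0.745 to 1.59, and *Egln1* from 0 to 3.87, with 0.631 with other cell types left in and 0.942 in Y-linked-positive cells without *Xist*. With HSC-like clusters only, which hold 43 Id2-deleted cells, *Arnt* turned to 1.23, *Hif1an* moved to 2.14, *Cul2* to 0.579 and *Egln1* to 0, on 6, 8, 6 and 0 Id2-deleted UMIs. The number of genes with an interval off 1 went from 1 to 0 with other cell types left in, under TMM and median-of-ratios scaling, in cells with *Xist* or with Y-linked UMIs alone, in HSC-like clusters only, and without cells with a *Dntt*, *Vpreb1*, *Vpreb3* or *Igll1* UMI. The number past 1.5-fold was 2. It was 1 with other cell types left in, in Y-linked-positive cells without *Xist*, and without the cells with a *Dntt*, *Vpreb1*, *Vpreb3* or *Igll1* UMI, and 4 in HSC-like clusters only. Median-of-ratios scaling divides the ratios by 0.911 and TMM by 0.928. All 3 VHL ligase partners had intervals above 1 in 11 of 13 alternatives, with 1 of 3 in *Xist*-positive cells without Y-linked UMIs and 1 of 3 in HSC-like clusters only. The 11 include the settings that left the ratios of the 8 genes unchanged. HIF target genes above and below 1 numbered 2 and 13 with other cell types left in, 0 and 1 in *Xist*-positive cells without Y-linked UMIs, 2 and 2 in HSC-like clusters only, 6 and 4 under median-of-ratios scaling and 5 and 6 under TMM, against 4 and 6. The cause of these changes was not tested. The alternatives without lymphoid-gene cells, and those for partners, target genes and the *Egln3* share, were chosen after the data were seen. Counts under about 50 UMIs per library limit most of these ratios.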
